A study of Homo sapiens with 4 samples.

Results

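The H3K27ac peaks described here lay on chromosome 8 (hg38) in the window from 1 Mb below the gene MYC to 2.5 Mb above it, which includes the long non-coding RNA gene PVT1. Members were taken by position alone: each peak of either H3K27ac list that overlapped chr8:126735434-130242951, with no use of its score. There were 229 such peaks, 142 from cells given daunorubicin and 87 from untreated cells, out of 103744 peaks in both lists. The cells were K562, an established line from a patient with chronic myeloid leukaemia in blast crisis that carries BCR-ABL1 and lacks working p53. Treated cells received daunorubicin, a DNA-intercalating poison of topoisomerase II, at 1 uM for 18 h, and the untreated cells were incubated without it. For each condition there was 1 H3K27ac library and 1 input library without antibody, so no difference below has a replicate check, no test between conditions was possible and no p-value is given. The series was deposited under the heading of anthracyclines, ALDH1 and drug resistance in acute myeloid leukaemia, a different leukaemia from that of K562.

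MYC encodes a transcription factor that pairs with MAX at E-box sequences and drives growth and cell division. It sits in a stretch of chromosome poor in protein-coding genes and is controlled by enhancers that can lie very far from it and that differ between tissues. In blood cells an enhancer cluster far beyond PVT1 is known to sustain MYC expression, and in K562 other MYC enhancers are known within and just beyond PVT1. The PVT1 promoter itself is known to compete with that of MYC for such enhancers. H3K27ac marks active promoters and enhancers, but a peak alone does not show that an element acts on MYC, and MYC transcripts were not measured in these data.

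Across the window, the daunorubicin peaks covered 111408 bp and the untreated peaks 76393 bp, a ratio of 1.46, and the ratio of peak numbers was 1.63. Over the whole lists these ratios were 1.59 and 1.69, and over the rest of chromosome 8 they were 1.76 and 1.83. Neither input library had a peak in the window. Overlapping peaks of both lists, by at least 1 bp, were merged into 156 regions, of which 64 were shared, 71 came from the daunorubicin list alone and 21 from the untreated list alone. Regions called only with daunorubicin made up 45.5% (95% Wilson interval 37.9 to 53.3) of the regions, close to the 44.6% over both whole lists. Regions called only without daunorubicin made up 13.5% (8.98 to 19.7), against 6.13% over the whole lists and 5.05% on the rest of chromosome 8. Counted as peaks, 50% (41.9 to 58.1) of the daunorubicin peaks in the window had no untreated peak overlapping, against 46.3% over the whole list. For untreated peaks with no daunorubicin peak overlapping the shares were 24.1% (16.4 to 34.1) and 10.7%. These intervals cover counting error only, and neighbouring peaks are not independent. When the daunorubicin list was shortened to its 38626 highest-scoring peaks, the size of the untreated list, the window held 79 daunorubicin and 87 untreated peaks, a ratio of 0.908. This setting fixes the ratio over the whole lists at 1, so an order turned in the window says only that its ratio lay below that of the lists, as it did before shortening.

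Other windows of the same length, 711 of them tiling chromosomes 1 to 22 and X with at least 10 untreated peaks each, give the setting for these ratios. Their median ratio of covered length was 1.67 (quartiles 1.48 and 1.85), and 22.1% of them had a ratio no higher than that around MYC. For the ratio of peak numbers the median was 1.74 (quartiles 1.55 and 1.95), and 36.6% of windows were no higher. The MYC window was richer in peaks than most, with 84.5% of windows holding no more untreated peaks and 84.1% no more daunorubicin peaks.

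**Figure D1:**
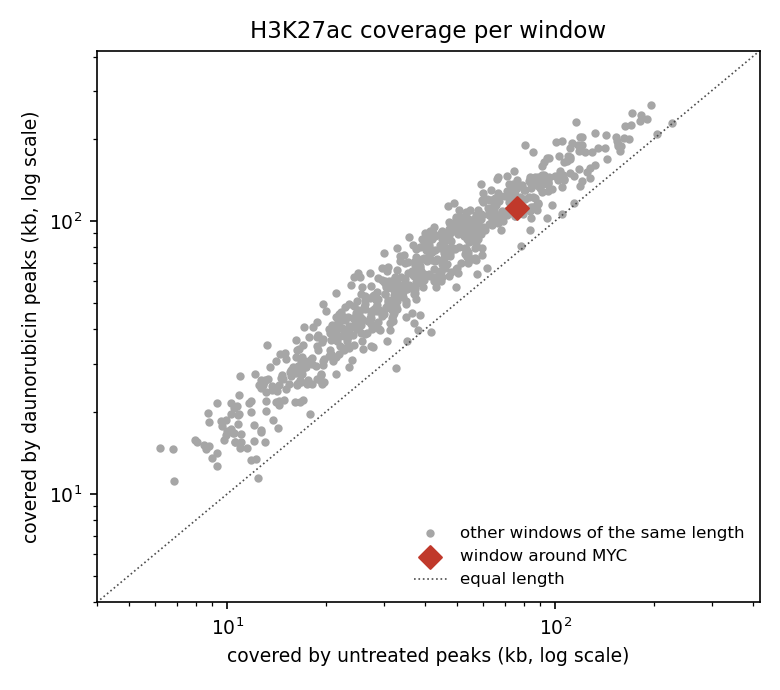
Length covered by H3K27ac peaks in each window of the same length as the MYC window, with the untreated library on the horizontal axis and the daunorubicin library on the vertical axis (kb, both log scales). Each grey point is 1 of 711 windows, the diamond is the window around MYC (76393 bp and 111408 bp), and the dotted line marks equal length. The diamond lies within the band of grey points, towards its well-marked end.

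The peaks were not spread evenly. Along the window they fell into 3 well-marked stretches: MYC with PVT1 and the sequence just above it, the gene CCDC26 with its surroundings, and the genes CYRIB and ASAP1 at the far end. Of 35 tiles of 100 kb counted out from MYC, 27 held a peak of either list and 8 held none. Covered length was longer with daunorubicin in 24 of the 27 and shorter in 3, or 88.9% longer, and over all chromosomes 89.4% of tiles with a peak were longer and 10.5% shorter. The median difference between libraries, daunorubicin minus untreated, was 759 bp per marked tile around MYC and 984 bp over all chromosomes.

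**Figure D2:**
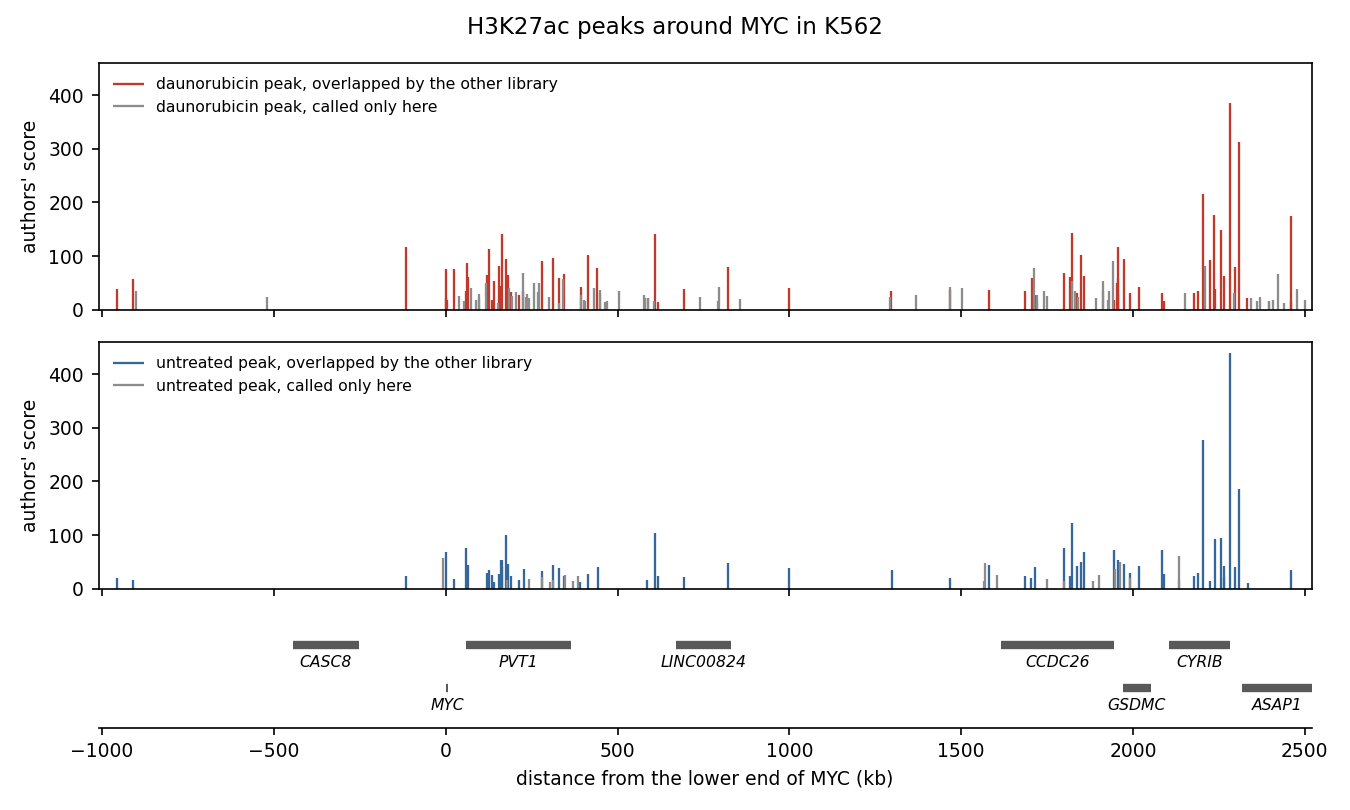
Every H3K27ac peak of the window by distance from the lower end of MYC (kb), with the authors' score as the height of each line, for the daunorubicin library above and the untreated library below. Grey lines are peaks called in that library only and coloured lines are peaks overlapped by the other library. Bars at the bottom are gene spans, with ASAP1 cut at the window's edge. The tallest lines of both libraries stand at the higher end of CYRIB, with scores of 385 and 439.

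The largest differences lay directly above MYC. The tile from 200 to 300 kb above MYC, inside PVT1, had 10931 bp covered after the drug and 5144 bp in its absence. The neighbouring tile from 100 to 200 kb had 10506 bp against 6060 bp, and the tile next to MYC 7604 bp against 4182 bp. From 400 to 500 kb, beyond PVT1, the covered length was 5693 bp against 1965 bp. The sequence from the end of MYC to 1 Mb above it made up 28.5% of the window's length and held 24812 bp, or 70.9%, of the window's net difference. All 8 tiles without a peak lay outside this sequence, and tiles shorter with daunorubicin lower the net difference. A share of length is therefore not an even background for it. In contrast, the tile from 1800 to 1900 kb, inside CCDC26, was nearly equal, with 9905 bp against 9394 bp. The 3 tiles with less coverage under daunorubicin lay at 600 to 700 kb (2760 bp against 2987 bp), 1500 to 1600 kb (754 bp against 2396 bp) and 2000 to 2100 kb (1581 bp against 2433 bp).

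**Figure D3:**
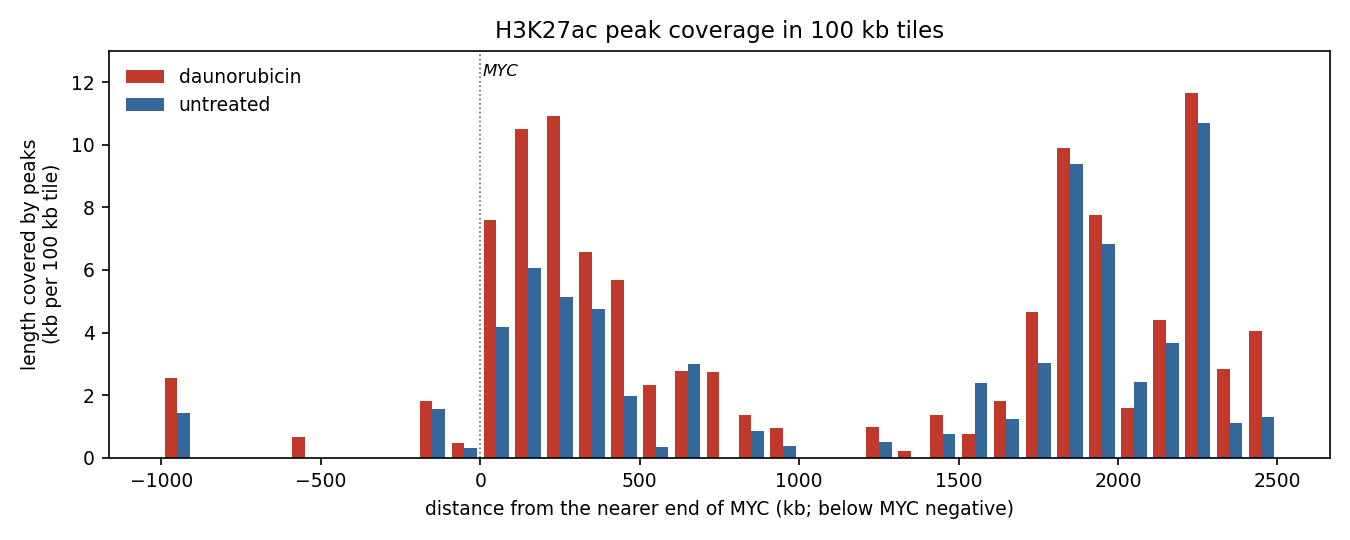
Length covered by H3K27ac peaks in each 100 kb tile (kb) by distance from the nearer end of MYC (kb), daunorubicin in red and untreated in blue. The red bars exceed the blue ones most at 100 to 300 kb above MYC, whereas around 1800 to 2000 kb and at 2200 to 2300 kb both are tall and close to each other.

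MYC itself (chr8:127735434-127742951) was marked at its lower end in both libraries. This is the 5' end, since MYC is transcribed towards higher coordinates. In the untreated library a single peak of 3066 bp ran from 127735506 to 127738571 with a score of 69. In the daunorubicin library 3 peaks covered the same stretch: 127734953 to 127736602 (1650 bp, score 76), 127737045 to 127737578 (534 bp, score 22) and 127737873 to 127738588 (716 bp, score 19). The first of them began 481 bp below the annotated start, whereas the untreated peak began inside the gene, and gaps of 442 bp and 294 bp separated the 3. The score is the authors' own value per peak, of unstated formula, and scores of the 2 lists may differ in scale. Within the gene span the daunorubicin peaks covered 2419 bp and the untreated peak 3066 bp. When peaks scoring under 43, the median of the untreated list, were left out, and also with equal numbers of highest-scoring peaks the first of the 3 was the only daunorubicin peak left, and coverage of the span was 1169 bp against 3066 bp.

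Within 50 kb of either end of MYC, the daunorubicin peaks covered 5348 bp and the untreated peaks 4585 bp, a difference of 763 bp. Of 17543 protein-coding genes marked in either library, 87.2% were longer with daunorubicin, with a median difference of 1249 bp, and 36.4% had a difference no higher than that of MYC. The order at MYC turned in windows of 10 kb, where the daunorubicin peaks covered 2900 bp and the untreated ones 3366 bp. It also turned with equal numbers of highest-scoring peaks (3564 bp against 4585 bp). A peak 9.18 kb below MYC, inside the neighbouring lncRNA gene CASC11, was called only in the untreated library (127725951 to 127726250, 300 bp, score 58). Only 1 of the 21 untreated-only peaks of the window, a peak in CYRIB with a score of 60, scored higher, and the nearest daunorubicin peak was the one at the start of MYC. On the other side, a shared peak between MYC and PVT1 was 1914 bp wide with daunorubicin (127759456 to 127761369, score 76) and 1219 bp without it (127759783 to 127761001, score 18).

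PVT1 (chr8:127794524-128101256) is a long non-coding RNA gene that also hosts the microRNAs MIR1204, MIR1205, MIR1206 and MIR1207. Its span held 38 daunorubicin peaks and 25 untreated peaks, covering 30283 bp and 17403 bp. By region, 18 were shared, 19 were found with the drug alone and 6 in untreated cells alone. The 19 were 44.2% (30.4 to 58.9) of the 43 regions in PVT1, close to the 44.6% over all regions. The 6 were a share with an interval of 6.56% to 27.3%, against 6.13% over all regions. Within 50 kb of the ends of PVT1 the covered length was 13604 bp against 7614 bp, a difference of 5990 bp. Of 12155 long non-coding RNA genes marked in either library, 88.4% were longer with daunorubicin, and the median difference was 1098 bp. For 97.4% of them the difference was no higher than that of PVT1. In untreated cells 92.1% of these genes had no more covered length than PVT1, with a median of 2307 bp. The ratio at PVT1 was 1.79, beside 1.59 over the whole lists. The windows at both ends of a short gene overlap, so it is measured over less sequence than PVT1. With equal numbers of highest-scoring peaks the difference at PVT1 was 2666 bp, where the whole lists had a ratio of 1.22. In windows of 10 kb the order at PVT1 turned to 3281 bp against 3391 bp.

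The start of PVT1 resembled that of MYC. A single untreated peak of 2529 bp (127794142 to 127796670, score 75) faced 2 daunorubicin peaks, of 588 bp (127794261 to 127794848, score 34) and 1692 bp (127795131 to 127796822, score 87). Deeper in the gene several daunorubicin peaks were wider than their untreated partner and others were narrower. Among the narrower ones were peaks of 485 bp against 636 bp, 154 kb above MYC, and 1326 bp against 2184 bp, 218 kb above it. Over the whole lists 67.8% of shared regions were longer with daunorubicin and 32.1% shorter. The wider ones included the following. A daunorubicin peak 116 kb above MYC was 1205 bp wide (127859368 to 127860572, score 114) and met an untreated peak of 360 bp (score 34). Around 155 kb above MYC, a daunorubicin peak of 1697 bp with the highest score of the gene, 142 (127898286 to 127899982), met 2 untreated peaks of 419 bp (score 40) and 608 bp (score 53). The untreated peak with the highest score in PVT1, 100, was 646 bp wide (127911159 to 127911804) and met a daunorubicin peak of 969 bp and score 94.

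Among peaks of PVT1 called only with daunorubicin, the highest score was 68, at 127959018 to 127960434 (1417 bp), within 1 kb of MIR1205. An untreated peak of 2184 bp (127961021 to 127963204, score 36) lay within 1 kb of it. Further along, daunorubicin peaks at 127992708 to 127994161 (1454 bp, score 50), 128002121 to 128003598 (1478 bp, score 33) and 128007700 to 128008617 (918 bp, score 50) had no untreated partner. The last of these lay within 1 kb of MIR1206. At MIR1207 both libraries had a peak of similar width, 1647 bp with daunorubicin (score 97) and 1618 bp without it (score 44). From the end of MYC to the end of PVT1, 21 of 46 regions had a daunorubicin peak only. They made up 45.7% (32.2 to 59.8), close to the 44.6% over all regions. Another 6 had an untreated peak only, a share with an interval of 6.12% to 25.7%, against 6.13% over all regions. The 21 fell to 17 if an untreated peak within 1 kb also counted as shared, and to 7 with equal numbers of highest-scoring peaks. No share of the regions in this stretch was taken under those settings, so the 17 and the 7 have no background.

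**Figure D4:**
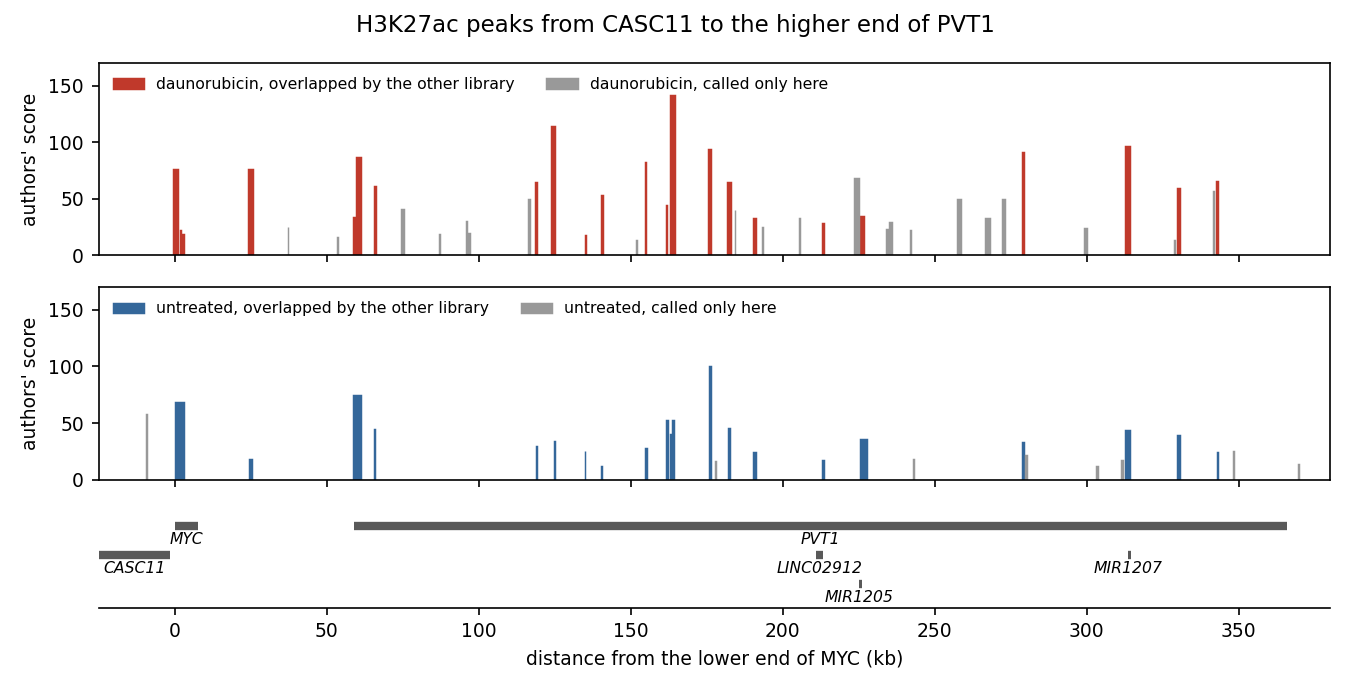
H3K27ac peaks from CASC11 to the higher end of PVT1 by distance from the lower end of MYC (kb), each drawn at its own position and width with the authors' score as height, for daunorubicin above and untreated cells below. Grey bars were called in that library only, and the strip at the bottom gives gene spans. MYC and the start of PVT1 have a single untreated peak each (3066 bp and 2529 bp) where the daunorubicin library has 3 and 2.

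Beyond PVT1, up to 1 Mb above MYC, there were 26 daunorubicin peaks and 11 untreated peaks, covering 18476 bp and 7654 bp, a ratio of 2.41. Of the 28 regions there, 9 were shared, 17 came from the daunorubicin list alone and 2 from the untreated list alone. Those 17 made up 60.7% (42.4 to 76.4), with 44.6% over all regions as the background. The 2 made up 7.14% (1.98 to 22.6), against 6.13% over all regions. None of the 17 scored above 42, so all were under 43, the median score of the untreated list. With that score limit, or with equal numbers of highest-scoring peaks, this stretch as a whole was not measured. At MIR1208, a microRNA gene just outside PVT1, a daunorubicin peak of 1070 bp (128149559 to 128150628, score 102) overlapped an untreated peak of 946 bp (score 28). The lncRNA gene LOC124902020 next to it had 4 daunorubicin peaks in its span and 1 untreated peak, covering 3409 bp and 1019 bp. The peak with the highest score in this stretch, 601 kb above MYC and outside any annotated gene, was nearly the same in both libraries. It was 1083 bp wide with daunorubicin (128343424 to 128344506, score 141) and 1000 bp without it (128343466 to 128344465, score 103). LINC00824, the next lncRNA gene, had 5 peaks with daunorubicin and 2 without it.

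From 1 Mb to 1.5 Mb above MYC marking was sparse in both libraries, with 6 daunorubicin peaks covering 2573 bp and 2 untreated peaks covering 1267 bp. None of these peaks had a score above 43.

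The stretch from 1500 to 2000 kb above MYC holds CCDC26 (chr8:129351694-129680239), a long non-coding RNA gene known from myeloid leukaemia, and the lower part of GSDMC, which encodes the pore-forming protein gasdermin C. It had 31 daunorubicin peaks and 25 untreated peaks, covering 24903 bp and 22886 bp, a ratio of 1.09. Of its 39 regions, 15 were shared, 14 came from the daunorubicin list alone and 10 from the untreated list alone. The shares were 35.9% (22.7 to 51.6) and 25.6% (14.6 to 41.1), against 44.6% and 6.13% over all regions. The 10 were part of the 21 such regions of the window, and 7 of them had no daunorubicin peak within 1 kb. With equal numbers of highest-scoring peaks the covered length here was shorter with daunorubicin, 18707 bp against 22886 bp. From MYC to the end of PVT1 it was longer, 23545 bp against 19004 bp. The ratio of covered length over the whole lists was 1.22 in this setting, so a longer length is not by itself particular to a stretch. Whether the 2 stretches differed beyond the variation between cultures was not tested, since each library stood alone.

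The span of CCDC26 held 24 daunorubicin peaks and 14 untreated peaks, covering 19067 bp and 14515 bp, in 10 shared regions, 14 from the daunorubicin list alone and 4 from the untreated list alone. Called with daunorubicin alone were 50% (32.6 to 67.4) of these regions, and 14.3% (5.70 to 31.5) in untreated cells alone, against 44.6% and 6.13% over all regions. The highest score in CCDC26 belonged to the same element in each, 1167 bp wide with daunorubicin (129556663 to 129557829, score 143) and 763 bp without it (129556902 to 129557664, score 123). The widest element of the window lay 1839 kb above MYC, with a daunorubicin peak of 3414 bp (129581488 to 129584901, score 102) and an untreated peak of 3718 bp (129581513 to 129585230, score 49). A pair of neighbours was likewise shared, at 129534941 to 129536812 with daunorubicin (1872 bp, score 68, against 1500 bp and score 76) and at 129591529 to 129592350 (822 bp, score 62, against 1835 bp and score 68). Other elements were called on one side. The peak with the highest score of all those called only with daunorubicin in the window lay near the higher end of CCDC26 (129677785 to 129678464, 680 bp, score 90). An untreated peak (129678803 to 129679642, 840 bp, score 72) lay 339 bp from it and overlapped another daunorubicin peak, of score 19. Deep in the gene, another daunorubicin-only peak (129446871 to 129447302, 432 bp, score 78) lay 2412 bp from the nearest untreated peak. Between CCDC26 and GSDMC, untreated peaks at 129682394 to 129682668 (score 36) and 129696327 to 129696724 (score 50) had no daunorubicin partner. A peak on the MYC side of CCDC26 (129303776 to 129304176, score 47) was also called only without the drug.

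**Figure D5:**
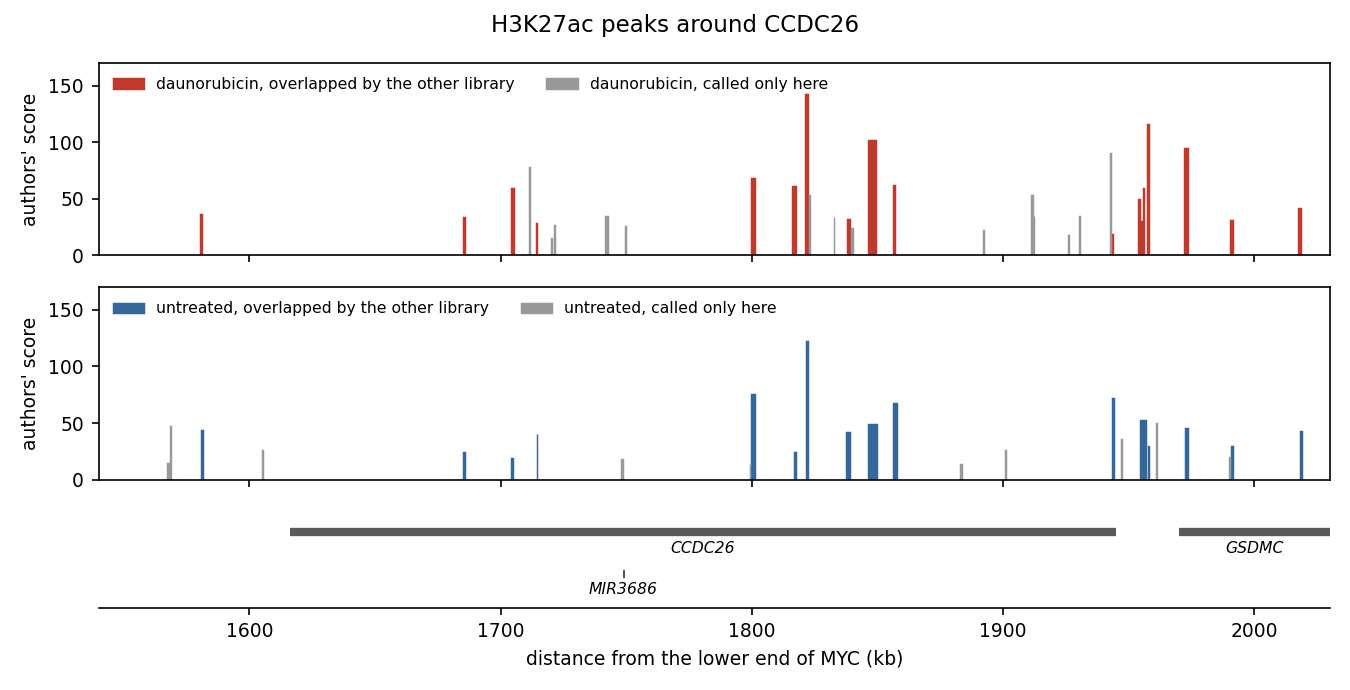
H3K27ac peaks around CCDC26 by distance from the lower end of MYC (kb), drawn as position, width and authors' score, for daunorubicin above and untreated cells below, with grey bars for peaks called in that library only. The tallest bar of both libraries is the same element inside CCDC26 (scores 143 and 123), and grey bars occur in both panels.

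The far end of the window held its highest scores. CYRIB, which encodes a RAC1-binding regulator of actin, had 11 peaks in each library, covering 13907 bp in treated and 12052 bp in untreated cells. The peak at the higher end of CYRIB had a score of 385 with daunorubicin (130015597 to 130017095, 1499 bp) and 439 without it (130015569 to 130017094, 1526 bp). Of the peaks in their own whole lists, 99.7% and 99.0% scored no higher. Between CYRIB and ASAP1, a shared peak had a score of 313 with daunorubicin (130042008 to 130043225) and 185 without it (130041635 to 130043448). By contrast, no peak of MYC or PVT1 was among the 5 highest scores of the window in either library. ASAP1, which encodes a GTPase-activating protein for ARF proteins, runs beyond the window. Inside the window it had 10 regions called only with daunorubicin and 2 shared ones. Thus 83.3% (55.2 to 95.3) of these 12 regions were called only with the drug, against 44.6% over all regions. Of the 10, 1 scored 66 and the others 38 or less. In CYRIB 2 of 12 regions, or 16.7% (4.70 to 44.8), were called only with daunorubicin. As many were called only without it, against 6.13% over all regions. From 2000 to 2500 kb above MYC, which takes in CYRIB and this part of ASAP1, 43.3% (27.4 to 60.8) of 30 regions were called only with daunorubicin. In the part of ASAP1 inside the window the highest daunorubicin score was 175 (130193579 to 130194832), against 34 for the untreated peak there.

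Below MYC there was little marking. From 1000 to 100 kb below there were 5 daunorubicin peaks and 3 untreated peaks. The lncRNA genes PCAT1, PCAT2, PRNCR1, CASC19, CASC21, CASC8 and CCAT2, many of them first described in prostate or colon cancer, had no peak within 1 kb of their spans in either library. The same held for POU5F1B, a retrogene copy of the pluripotency gene POU5F1. CCAT1 had a single peak, called only with daunorubicin (127215047 to 127215724, 678 bp, score 23). The element nearest to MYC on this side with a partner in both libraries lay 116 kb below it, 1817 bp wide with daunorubicin (127617879 to 127619695, score 116) and 1568 bp wide without it (127618038 to 127619605, score 24). In all, 24 of the 48 annotated genes of the window had a peak within 1 kb of their span, 23 of them in the daunorubicin list and 20 in the untreated list.

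Peaks called in a single library were narrow and low in score. The median width was 447 bp for daunorubicin-only peaks and 398 bp for untreated-only peaks, against 946 bp and 790.5 bp for peaks overlapped by the other library. Their median scores were 27 and 20, against 59 and 37. Among the 64 shared regions, covered length was longer with daunorubicin in 37 (57.8%) and shorter in 27 (42.2%), where 67.8% and 32.1% of shared regions over the whole lists were longer and shorter. In 5 shared regions (7.81%, against 4.76% over the whole lists) a single untreated peak faced several daunorubicin peaks. These were the starts of MYC and PVT1, an element between CCDC26 and GSDMC (1338 bp with daunorubicin in 3 peaks, 2414 bp without it), 1 in CYRIB and 1 in ASAP1. The reverse was seen in 2 regions (3.13%, against 3.35%), the first in PVT1 and the other in CYRIB.

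Regions were joined across gaps up to the distance customary for stitching super-enhancers, which lies between the 5 kb and 25 kb tried as alternatives. This gave 54 clusters, of which 14 held daunorubicin peaks only and 3 untreated peaks only. No clusters outside the window were counted, so the 14 and the 3 have no background of their own kind. Among single regions of both whole lists, 44.6% came from the daunorubicin list alone and 6.13% from the untreated list alone. The order of the 14 and the 3 is therefore not by itself particular to the window. The cluster with the greatest covered length lay inside PVT1 and spanned 127 kb (chr8:127851713-127978666), with 21 daunorubicin peaks covering 15745 bp and 15 untreated peaks covering 9366 bp. The next lay in CCDC26, 1809 kb above MYC, and spanned 41.8 kb (chr8:129551568-129593331), with 9458 bp against 8278 bp. The cluster across the higher end of CCDC26 and the lower end of GSDMC was equal to within 54 bp, at 5769 bp and 5715 bp. A cluster in CYRIB had 7310 bp against 5536 bp, and that at the start of PVT1 had 5482 bp against 2963 bp. With equal numbers of highest-scoring peaks the cluster with the greatest covered length was the CCDC26 one, with 7502 bp against 8278 bp.

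MYC acts in a network of related factors, and 12 of its other genes were examined for the same measure, covered length within 50 kb of the ends. Of these, 10 were longer with daunorubicin, 1 was shorter and 1 was unmarked in both libraries. Over all marked protein-coding genes 87.2% were longer and 12.8% shorter. The median difference was 2948 bp for the 12 and 1249 bp over all marked protein-coding genes. The first median counts the unmarked gene as 0 bp, whereas the second leaves unmarked genes out. The measure takes in more sequence for a long gene than for a short one, and the 2 medians were not matched for gene length. MAX, the shared partner, had 9535 bp against 6120 bp. MXI1, a repressor that competes for MAX, had 12768 bp against 6857 bp, and MYCL, a MYC paralogue, had 7551 bp against 3868 bp. MXD4, another MAX-binding repressor, was the shorter gene, with 2855 bp against 3325 bp, and MYCN, the paralogue best known from neuroblastoma, had no peak. In windows of 10 kb 6 of the 12 were longer and 5 shorter, and with equal numbers of highest-scoring peaks 7 were longer and 4 shorter. The protein-coding genes with covered lengths most like those of MYC, by distance on the scale of log2(bp + 1) over both libraries, were LPCAT4 (5354 bp and 4585 bp), TPD52 (5362 bp and 4596 bp), FSD1L, ZNF189 and DCT. With 2 libraries this likeness describes 2 numbers per gene.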

How the data were processed

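H3K27ac ChIP-seq and input libraries were available from K562 cells with and without daunorubicin, 4 libraries in all. Per the submitters' processing notes, Bowtie2 2.3.4.3, MACS2 2.1.1 and deepTools 3.2.1 were used and the builds hg19 and hg38 were named. Tool parameters, the peak threshold, the role of the inputs and any duplicate removal: not given in the sources used here. Each library had its own peak list, in which a score per peak was the only value the authors deposited. Lists carried hg38 sequence names. Coordinates are counted from 1. Read counts were not used here, so depth is unknown, and peak number and width can move with depth and enrichment.

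Gene spans came from RefSeq's table for GRCh38.p14, without strand or exons, so introns, exons and UTRs were not told apart. No promoter sequence was used here. Overlap needed at least 1 bp, covered length was the union of peaks, and marked length was that within 50 kb of either gene end. Distance is to the nearer end of MYC. Named items followed a rule: MYC, PVT1, genes of the window with a peak within 1 kb, 12 MYC network genes, the 5 highest-scoring peaks and unshared peaks per library, the 5 clusters of greatest covered length and the 5 genes most like MYC. Other peaks printed, and the network genes given with values, were chosen after their values were seen. The members and lists were chosen with earlier results of these data known. Alternatives were a score of at least 43, equal numbers of peaks, removal of input peaks, other overlaps, windows, tiles and gaps. The counts of unshared peaks by zone under those settings were added after seeing the data. Python 3.11.15 with NumPy 2.4.6 and SciPy 1.17.1 was used, and overlap functions were tested on simulated peaks against bedtools 2.31.1, with equal results for 4 of 4 quantities.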

Additional observations from a re-analysis of the deposited data

How the results depend on the processing

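Most differences around MYC depended on how many peaks were admitted. With equal numbers of highest-scoring peaks the peak ratio was 0.908. In this setting 25 regions (22.7%) came from the daunorubicin list alone and 34 (30.9%) from the untreated list alone. Over the whole lists it gave a peak ratio of 1 and shares of 20.4% and 20.2%. The ratio of covered length over the whole lists was still 1.22, so equal length is not the neutral point of this setting. The difference in covered length, daunorubicin minus untreated, was then 4541 bp from MYC to the end of PVT1, -4179 bp from 1500 to 2000 kb, -1897 bp in the MYC span, -1021 bp around MYC, 2666 bp around PVT1 and -776 bp in the cluster of greatest covered length. With a score of at least 43 there were 30 (50%) and 8 (13.3%) unshared regions, against 40.3% and 4.81% over the whole lists. The peak ratio (1.77) and the differences from MYC to the end of PVT1 (13204 bp) and around PVT1 (4306 bp) then stayed within 1.5 times of their values without the limit. Beside these, the differences were 1235 bp from 1500 to 2000 kb, -1897 bp in the MYC span and 198 bp around MYC. The whole lists had a peak ratio of 1.63 at this limit, below that of the window. Without the limit the window (1.63) lay below the lists (1.69). Within 1 Mb on both sides of MYC 40 and 9 regions were unshared, as a shorter window must hold fewer. When a reciprocal overlap of 50% was needed, 94 daunorubicin peaks and 39 untreated peaks counted as unshared. No share of regions was taken in these 2 settings, so their counts have no background. Windows of 10 kb gave -466 bp at MYC, -110 bp at PVT1 and 6 longer network genes, windows of 100 kb gave 2956 bp and 12284 bp, and the extended PVT1 span gave 15596 bp. Gaps of up to 5 kb and 25 kb gave 107 and 25 clusters, with -304 bp and 18520 bp for the cluster of greatest covered length, which was a different cluster in each. Of 22 other named genes, 18 were longer and 4 shorter with daunorubicin within 50 kb of their ends. Over all chromosomes 87.2% of protein-coding and 88.4% of lncRNA genes marked in either library were longer. The 4 were CCDC26 (-1064 bp), CYRIB (-1627 bp), GSDMC (-747 bp) and LOC124900265 (-383 bp). Under some setting 10 of the 22 changed sign. In windows of 10 kb these were ASAP1 (-21 bp), CASC11 (-466 bp), CCDC26 (417 bp), LOC124902025 (-576 bp) and MIR1207 (-627 bp). In windows of 100 kb they were CYRIB (1987 bp), LINC00977 and LOC124902022 (-1037 bp each) and LOC124900265 (1615 bp). Over the extended span they were CCDC26 (2017 bp) and CYRIB (654 bp). With equal numbers of peaks they were ASAP1 (-1169 bp), CASC11 (-1021 bp), MIR1207 (-75 bp) and RNU6-1255P (-1344 bp), and with a score of at least 43 ASAP1 (-638 bp). The cause of these changes was not tested. Removing peaks on input peaks could change no value in the window, since neither input had a peak there. No paired analysis was possible because each condition had 1 library. Depth is unknown, so a region called in 1 library only may be marked below the caller's threshold in the other.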

Other observations

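Long stretches of the window carried no peak in either library. The longest, 402 kb from 127215725 to 127617878 below MYC, held CASC21, CASC8, CCAT2, POU5F1B and part of CCAT1. The next, 381 kb from 126834011 to 127215046, held PCAT1, PCAT2, PRNCR1 and CASC19, so the 2 together were broken only by the daunorubicin peak inside CCAT1. Above MYC the longest such stretch was 293 kb, from 128734955 to 129028159, with LINC00976 inside it.

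Some of the peaks called in a single library had a near neighbour in the other. Of the 21 untreated-only peaks, 6 lay within 1 kb and 10 within 5 kb of a daunorubicin peak, with a median gap of 5008 bp and a largest gap of 23832 bp. Of the 71 daunorubicin-only peaks, 10 lay within 1 kb and 22 within 5 kb of an untreated peak, with a median gap of 8370 bp. The most isolated of them was the peak inside CCAT1, 389911 bp from the nearest untreated peak.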
